A study of Rattus norvegicus with 38 samples.

Results

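Late-stage cortical vessels of SHRSP rats were compared with early-stage vessels of the same strain, in 10 of the 38 libraries of the series. SHRSP rats are an inbred line that develops severe high blood pressure and is prone to stroke. The 5 late libraries came from animals 378, 379, 381, 382 and 384, aged 32 to 34 weeks, and the 5 early ones from animals 374, 377, 380, 383 and 386, aged 24 to 25 weeks. They were chosen by the strain, material and stage in the labels alone, and are all the SHRSP vessel libraries. Each was 3' end RNA sequencing of laser-microdissected blood vessels of the cortex, from the frontal brain. The labels name no treatment, sex or transgene for any group. For reference, 9 Wistar vessel libraries (5 early, 4 late, same ages) and 10 neuron libraries cut from the same 10 SHRSP animals were used. By its title, the study asked whether hypertension leaves different marks at different stages, and late minus early addresses this in the vessels of the hypertensive strain.

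Cortical vessels are lined by endothelial cells, which form the blood-brain barrier with tight junctions and selective transporters. Pericytes, smooth muscle cells, a basement membrane and the endfeet of astrocytes surround them. In SHRSP rats a lasting rise in blood pressure is known to thicken and stiffen the walls of brain vessels and to damage the barrier, and strokes follow with age. A microdissected vessel is a mixture, so a lower level of a transcript can mean fewer cells of a type or less RNA per cell, and these cannot be told apart here. The files give Ensembl gene IDs without gene names, so results are stated by ID, with no role attached. The identity of the captured cells could not be checked against marker genes for the same reason. It was checked instead with IDs that were higher in vessels than in neurons of the Wistar animals.

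The late libraries held more different transcripts than the early ones, with a single exception. IDs with at least 1 count numbered 6088 in animal 374, 4104 in 377, 5745 in 380, 6549 in 386 and 10207 in 383 at the early stage. At the late stage they numbered 9877 in animal 378, 10594 in 379, 11004 in 381, 9875 in 382 and 11685 in 384. The 4 other early libraries thus lay below every late one, and animal 383 lay inside the late range. The means were 6539 ± 2248 early and 10607 ± 773 late (SD, n = 5 each), a difference larger than the spread between animals (exact permutation test, two-sided, p = 0.0238, the same after Benjamini-Hochberg adjustment over 2 tests of library measures; the smallest p possible was 0.00794). Without animal 383 the early mean was 5622 ± 1064 (n = 4) and the exact permutation p was 0.0159, the smallest possible there. Leaving out the only early library inside the late range fixed that p, so it is no separate support.

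Depth was also higher on average in late libraries, and the ranges overlapped. Totals ran from 1612966 to 3097536 counts early and from 2561524 to 4963429 late (exact permutation test, two-sided, p = 0.0714). At an equal depth of 1612966 counts, the expected number of IDs was 6170 ± 2274 early and 10324 ± 891 late (SD, n = 5 each; exact permutation test, p = 0.0238). In Wistar vessels the means were 7867 ± 2438 early (n = 5) and 11134 ± 631 late (n = 4), with an exact permutation p of 0.0635. Whether the stage differences in detection of the strains differed was not tested.

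**Figure D1:**
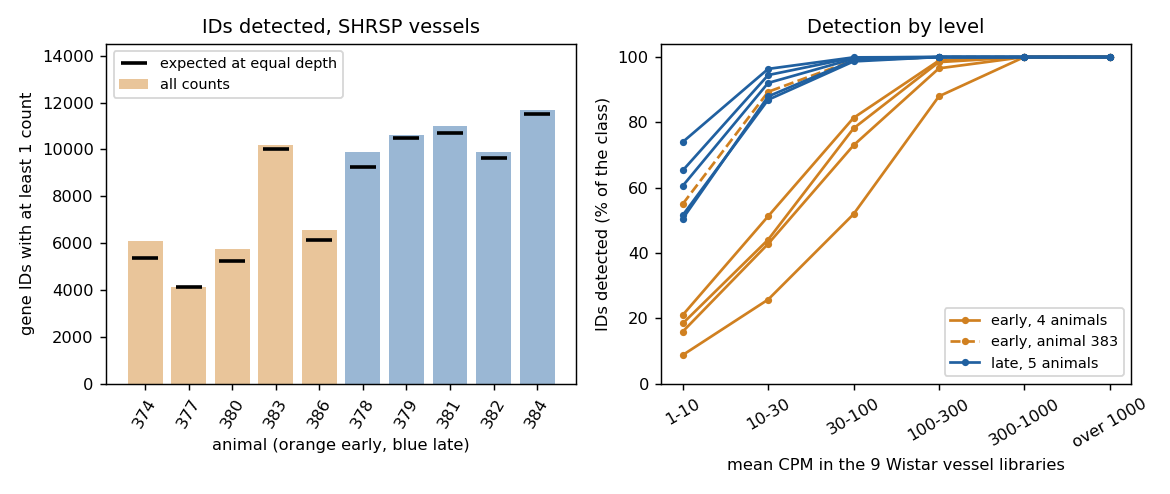
Left, gene IDs with at least 1 count in each SHRSP vessel library (bars, 1 per animal) with the number expected at 1612966 counts (black marks). Right, the percent of IDs detected in each of the 10 libraries, for IDs classed by their mean CPM in the 9 Wistar vessel libraries. The 4 other early animals lie below all late ones up to 100 CPM, while animal 383 runs with the late animals.

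The IDs missing from the early libraries were not only rare ones. Levels are given in CPM, the counts of an ID per 1000000 counts of its library. Here, for sets of IDs chosen by detection or without animal 383, and for folds against a group without counts, the total is the deposited one. For named IDs and fitted folds it is scaled by TMM, edgeR's correction for library composition. Among the 2988 IDs with a mean of 30 to 100 CPM in Wistar vessels, the late libraries detected 98.7% to 99.9% and animal 383 detected 99.0%. The 4 other early libraries detected 51.9% to 81.4% of the same IDs. From 10 to 30 CPM (3277 IDs) they detected 25.7% to 51.2%, against 89.4% in animal 383 and 86.9% to 96.4% late. From 100 to 300 CPM (1097 IDs) they detected 88.0% to 98.9%, and the 6 remaining libraries 100%. Above 300 CPM every ID was found in all 10 libraries.

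Abundant IDs were also uneven where they were detected. Of 1388 IDs with at least 100 CPM in Wistar vessels, 296 stood below 10% of that mean in animal 374, 606 in 377, 205 in 380 and 102 in 386. In animal 383 there were 0 such IDs, and the late libraries had 0 to 2. IDs above 4 times the Wistar mean numbered 47, 119, 40 and 18 in animals 374, 377, 380 and 386, 9 in 383 and 0 to 3 late. Many of these normally abundant IDs had 1 to 5 counts in the 4 early libraries (204, 425, 126 and 60 IDs in the same order), and none had so few in animal 383 or in any late library.

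The libraries grouped accordingly. A pair of late libraries shared a median of 74.2% of the IDs detected in either, over 10 pairs. Animal 383 shared a median of 74.7% with the 5 late libraries and 51.3% with the 4 other early ones. The 4 other early libraries shared 48.7% among themselves over 6 pairs, which was no more than the 51.2% they shared with late libraries. The common biological coefficient of variation, edgeR's measure of spread between animals, was 2.41 in early and 1.04 in late SHRSP vessels, against 0.270 and 0.268 in the neurons of the same animals. The smallest chi-square per degree of freedom between any pair was 30.3, for animal 383 and a late library, so no pair was treated as 1 library deposited again.

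Of 14355 IDs found in any of the 10 libraries, 2304 were found in all of them, and these held 75.1% to 83.9% of each library's counts. All 5 late libraries shared 7500 IDs, which was 54.0% of the IDs seen in any late library. All 5 early libraries shared 2329, or 20.3% of those seen in any early one. There were 91 IDs with counts in every late library and in no early one, and 0 with the reverse pattern. The 91 had late means of 2.03 to 37.0 CPM, with a median of 11.4. Of these IDs, 86 had counts in at least 1 early Wistar vessel library and 83 in all 5 neuron libraries of the early SHRSP animals. Animal 383 narrowed this set, since 637 IDs were in all 5 late libraries and in none of the 4 other early ones, and 546 of them (85.7%) were detected in animal 383.

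The most abundant ID, ENSRNOG00000043866, took 7.54%, 7.09%, 6.45% and 7.21% of counts in animals 374, 377, 380 and 386, and 17.7% in animal 383. At the late stage it took 9.69%, 18.5%, 20.8%, 22.9% and 31.0% in animals 378, 379, 381, 382 and 384. Again 4 early libraries lay below all late ones and animal 383 did not. The mean share was 9.20% ± 4.77 early and 20.6% ± 7.70 late (SD, n = 5 each; exact permutation test, two-sided, p = 0.0159, adjusted over 2 tests 0.0238). Since shares add to a whole, a larger share here leaves a smaller share for all other IDs together. The scaled CPM of this ID gave a log2 fold of 1.24 (SE 0.50), which did not pass across all IDs in edgeR's quasi-likelihood test (adjusted p = 0.247).

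Across all IDs, 1 of 11011 tested differed between late and early SHRSP vessels at a Benjamini-Hochberg adjusted p under 0.05 in edgeR's quasi-likelihood test (0.00908%), and it was lower in late vessels. No ID passed as higher. Few calls are no measure of how few IDs changed: in a simulation at the spread of this fit the same steps recovered 0 of 200 4-fold changes. That simulation gave all groups the same spread per ID, unlike the real groups, so it is no exact measure of power here. An unadjusted p under 0.05 was found for 1527 IDs (13.9%), 1273 of them higher in late vessels (11.6%) and 254 lower (2.31%). Of the 1273, 728 had no count in any early library, so their late level could not be lower and nothing is read from them. DESeq2 called 358 IDs on the same libraries (3.35%), 324 higher (3.03%) and 34 lower (0.318%). Of its 324 higher IDs, 229 were detected in at most 1 early library, and 143 of its calls had no count in any early one. Among all 11011 IDs kept by the filter, 750 had no early count and 2034 were detected in 1 early library. The 1 ID that passed in edgeR was not called by DESeq2. The number of IDs detected was not part of either test. With its log2 as a covariate in edgeR, 0 IDs passed, 797 had an unadjusted p under 0.05, and the balance turned to 329 higher and 468 lower.

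The folds differed with level. The median log2 fold of late over early was 0.45 over all IDs tested. By mean level over the vessel libraries it was 2.23 for 3114 IDs below 10 CPM, 0.72 for 3234 IDs from 10 to 30 CPM and -0.15 for 3179 IDs from 30 to 100 CPM. Above that it was -0.32 (1157 IDs), -0.33 (272 IDs, 300 to 1000 CPM) and -0.33 (55 IDs, from 1000 CPM). Among the IDs tested, 750 had no count in any early library. These passed the filter on low counts only through other groups. With an empty early group their late level could not be lower, so the direction was fixed and nothing is read from their folds. Fitted folds of such IDs also depend on the tool's prior count, and they weigh on the medians of the low classes. The 2304 IDs detected in all 10 libraries had a median of -0.35, with 43 higher and 128 lower at an unadjusted p under 0.05.

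**Figure D2:**
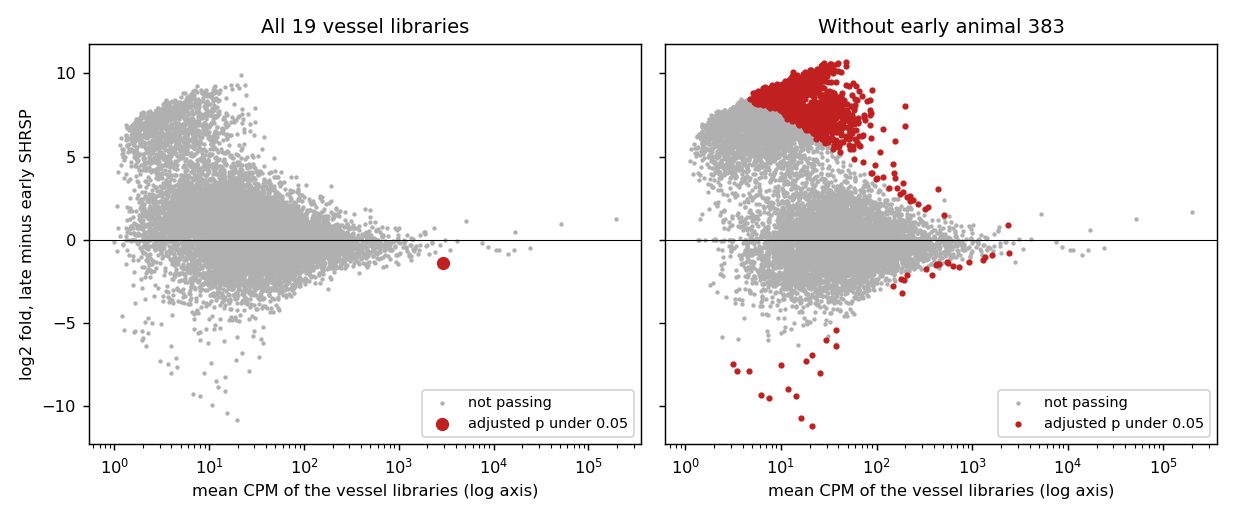
Log2 fold of late over early SHRSP vessels (vertical axis) against the mean CPM of the vessel libraries in the fit (log axis), 1 point per gene ID, with IDs at an adjusted p under 0.05 in red. With all 19 vessel libraries 1 ID of 11011 passes, and without early animal 383 the red cloud of 1275 higher IDs sits mostly below 100 CPM.

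The ID that passed, ENSRNOG00000015550, is abundant, at rank 15 by mean CPM over the vessel libraries. Early levels were 9039 CPM in animal 374, 3153 in 377, 7090.1 in 380, 3931 in 383 and 3637 in 386, in libraries with 6088, 4104, 5745, 10207 and 6549 IDs. Late levels were 2385 CPM in animal 378, 2514 in 379, 1633 in 381, 2461.5 in 382 and 1198 in 384, in libraries with 9877, 10594, 11004, 9875 and 11685 IDs. Every late animal lay below every early one, and 383 lay with the other early animals here. It fell 2.63-fold in late vessels, from a mean of 5370.0 ± 2569 to 2038 ± 591 CPM (SD, n = 5 each; log2 fold -1.40, SE 0.25, edgeR quasi-likelihood test, adjusted p = 0.00026).

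The call was not stable although the direction was the same throughout. It was lost under 10 of 21 other settings, with adjusted p up to 1 in edgeR and log2 folds between -1.50 and -0.93. Leaving out animal 374 gave an adjusted p of 0.0606 in edgeR, 377 gave 0.288, 383 gave 0.0522 and 384 gave 0.145. With the number of IDs detected as a covariate the log2 fold was -0.96 (adjusted p = 0.719 in edgeR), and among the animals of the high library set, described below, it was -0.94 (adjusted p = 0.560).

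In Wistar vessels ENSRNOG00000015550 measured 953 to 5223 CPM early (mean 2195 ± 1720, n = 5) and 1214 to 2596 late (1910 ± 627, n = 4), with full overlap. Its log2 stage difference in Wistar was -0.20, and the difference between the strains, -1.20, did not pass in edgeR (adjusted p = 0.297). The late SHRSP levels lay within the range of the Wistar libraries, and 1 Wistar library, from early animal 368, reached the range of early SHRSP. In Wistar animals the ID was 47.4-fold higher in vessels than in neurons. In neurons of the SHRSP animals it stood at 23.3 to 59.9 CPM early and 10.7 to 29.8 late, a log2 difference of -1.12. The vessel difference minus the neuron difference was -0.06 (SE 0.35, adjusted p = 0.936 in edgeR).

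ENSRNOG00000061934 had the next smallest p on the lower side and did not pass (edgeR, adjusted p = 0.177). It measured 310.1 CPM in early animal 377, 29.6 in 374, 0.331 in 386 and 0 in 380 and 383, and it had no count in any late library. The group thus rested on 2 animals, both with few IDs detected (4104 and 6088). With 3 counts over the late group as the floor, the early mean was at least 440-fold higher than the late one, and at least 41.5-fold higher without animal 377. It passed with DESeq2-type scaling in edgeR (adjusted p = 0.0249), in DESeq2 (adjusted p = 6.70e-12) and in edgeR without animal 383 (adjusted p = 0.0231).

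ENSRNOG00000005726 had the smallest p on the higher side and did not pass (log2 fold 3.26, SE 0.80, edgeR adjusted p = 0.177). Early levels were 1.85 CPM in animal 374, 1.24 in 377, 1.02 in 380, 0.331 in 386 and 134 in 383. Late levels were 244 CPM in animal 378, 141.5 in 379, 337 in 381, 258 in 382 and 357 in 384. The 4 other early libraries held 1 to 4 counts of it, while animal 383 was just below the lowest late animal. Without 383 the log2 fold was 8.04 and the ID passed (edgeR, adjusted p = 5.14e-07). Early Wistar vessels ranged from 19.7 to 461 CPM and late ones from 225 to 348. The neurons of the early SHRSP animals held 158 to 334 CPM, so the transcript was present in the cortex of the animals whose vessel libraries nearly lacked it.

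ENSRNOG00000004901 was the other higher ID by this rule and did not pass (edgeR, adjusted p = 0.188). It had no count in any early library, animal 383 included. Late levels were 45.4 CPM in animal 378, 35.8 in 379, 30.8 in 381, 22.6 in 382 and 43.1 in 384. Late vessels were at least 155-fold higher, with 3 counts over the early group as the floor, and at least 139-fold without animal 378. This ID is among the 750 tested IDs without an early count. With an empty early group its late level could not be lower, and it was named for its small p. No result is read from these bounds. The neurons of the early animals held 21.6 to 33.3 CPM, and early Wistar vessels ran from 0 to 46.4 CPM with counts in 4 of 5. It passed in DESeq2 (adjusted p = 8.82e-07) and, in edgeR, without animal 383 (adjusted p = 0.0351). These calls use the same empty early group and are no separate support.

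**Figure D3:**
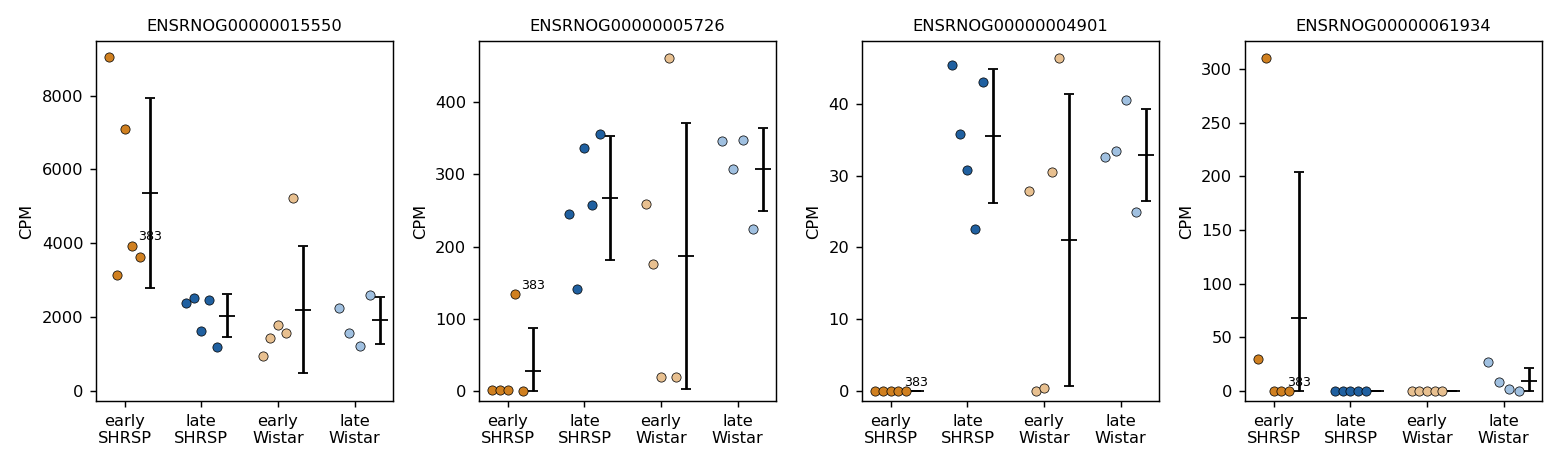
CPM of the 4 named IDs in each vessel library (points) by strain and stage, with the mean and SD beside each group; SD bars are clipped at 0 and animal 383 is marked. ENSRNOG00000015550 separates early from late SHRSP animals, while ENSRNOG00000005726 is near 0 in 4 early animals and 134 CPM in animal 383.

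Groups that did not overlap were counted for every ID tested. All 5 late libraries lay above all 5 early ones for 464 IDs (4.21%) and below them for 27 (0.245%). The 464 had a median log2 fold of 4.50 and a median level of 14.9 CPM, 89 of them had no early count and 34 were detected in every early library. The 27 were detected in every early library, had log2 folds from -3.70 to -0.77 (median -1.58) and a median level of 191 CPM. Lying below requires a count in every early library, and lying above requires one in every late library. Early detection of the 27 was thus fixed by the rule and is not set against that of the 464.

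IDs enriched in vessels over neurons were chosen in the Wistar animals only, so the SHRSP values had no part in the choice. The 112 vessel-enriched IDs took 8.86% of counts in animal 374, 8.20% in 377, 9.33% in 380, 7.72% in 383 and 8.69% in 386 at the early stage. At the late stage they took 6.70% in animal 378, 6.31% in 379, 5.04% in 381, 6.07% in 382 and 3.46% in 384. The early libraries, 383 included, all lay above the late ones, with means of 8.56% ± 0.619 and 5.52% ± 1.30 (SD, n = 5 each). With the most abundant ID left out of the totals the ranges were 8.82% to 9.97% early and 5.02% to 7.87% late, still apart. Neurons of the same animals held 1.64% to 2.52% early and 1.26% to 1.43% late, so every SHRSP vessel library was above every neuron library. The Wistar vessel libraries held 3.63% to 8.78% early and 3.997% to 5.56% late, overlapping, but these animals chose the list.

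Within that list, 90 of 112 IDs had a negative log2 fold, and the median was -0.62, against 0.45 over all IDs tested and -0.35 over the IDs detected in all 10 libraries. At an unadjusted p under 0.05, 22 were lower and 1 was higher, beside 2.31% lower and 11.6% higher over all IDs tested and 128 lower and 43 higher of the 2304 detected in all 10 libraries. The 11.6% includes 728 IDs without an early count. Lower IDs were more frequent at high levels: 39 of 272 from 300 to 1000 CPM and 15 of 55 from 1000 CPM, with 5 and 3 higher. Whether the list differed from IDs of like level was not tested. ENSRNOG00000015550 was the 1 ID of the list that passed adjustment. The late-minus-early difference in share was -3.04 percentage points with it and -2.71 without it. Detection of the list was near complete in most libraries, with 86 to 110 of the 112 IDs found early and 109 to 111 late. Whether vessel cells made up a smaller part of the late captures, or held less of these transcripts, cannot be told apart.

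The 230 neuron-enriched IDs took 1.15% to 2.02% of counts early and 1.12% to 1.69% late in SHRSP vessels, overlapping. The neurons of the same animals held 2.83% to 3.70% early and 2.56% to 3.08% late. Of 127 members that passed the filter on low counts, 21 were higher and 3 lower at an unadjusted p under 0.05, 0 passed adjustment and the median log2 fold was 0.46. Over all IDs tested, 11.6% were higher and 2.31% lower, with a median of 0.45, so these members stood near the background. That background includes 728 higher IDs without an early count, from which nothing is read. Here 74 to 134 of the 230 were detected in early vessels and 126 to 179 in late ones, with animal 383 the highest early library. More of the list was thus detected in most late libraries, while its shares of counts overlapped.

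**Figure D4:**
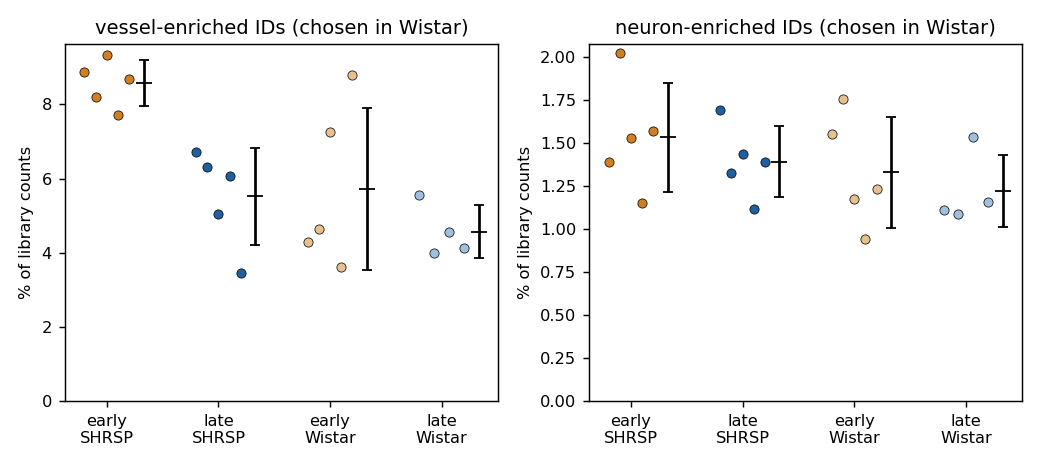
Percent of each vessel library's counts in the 112 vessel-enriched (left) and 230 neuron-enriched IDs (right), chosen in the Wistar animals, with 1 point per animal and the mean and SD beside each group. Early SHRSP vessels, 7.72% to 9.33%, lie above late ones, 3.46% to 6.70%, for the vessel-enriched IDs, and the groups overlap for the neuron-enriched IDs.

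Leaving out animal 383 changed the number of calls more than any other setting. Without it, 1310 of 10847 IDs passed in edgeR (12.1%), 1275 higher in late vessels (11.8%) and 35 lower (0.323%). Of the 1275, 707 (55.5%) had no count in the 4 remaining early libraries, and 1027 were detected in all 5 late ones. In animal 383 itself 1164 (91.3%) were detected, and for 869 (68.2%) its level lay inside the late range. The same shares over all IDs tested were not computed, so neither is read as particular to the 1275. Their median level was 22.3 CPM in animal 383, 24.4 over late means and 0 over the means of the 4 other early animals. In the fit with all libraries 1272 of the 1275 had the same sign and 306 an unadjusted p under 0.05. That fit shares every library but 383 with the one that chose them, so the kept sign is no separate support.

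The 35 lower IDs had a median level of 469 CPM in the 4 early animals, 53.3 in animal 383 and 61.5 in late means. They were chosen as higher in those 4 animals than in late ones, so their early level is not set against that of the higher IDs. All 35 kept their sign with an unadjusted p under 0.05 when animal 383 was included, but the other libraries were those that chose them, so this is no separate support. Of these, 18 were detected in all 4 early libraries and 8 had no late count. Animal 383 lay inside the late range for 18 and above it for 16, and inside the range of the 4 early animals for 23. These ranges can overlap. Of the 35, 7 were vessel-enriched, beside 112 of all 10847 IDs tested in this fit.

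The number of IDs in vessels followed a split seen in other libraries of the same animals. By the share of ENSRNOG00000043866 in their neuron libraries, animals 374, 377, 380 and 386 had 5.37% to 6.74%, and animal 383 and the 5 late animals 20.4% to 26.7%. By this share, but not by IDs detected, the neuron libraries divided the animals as the vessel libraries did. Neurons of animals 377, 380 and 386 held 13705 to 13975 IDs, and 374 held 11987. Those of animal 383 and the late animals held 13452 to 14305. Among early Wistar animals, 349 had a high neuron share (24.6%) and 11754 vessel IDs. The other early Wistar animals had 4.34% to 10.7% and 5833 to 8752 vessel IDs. The neuron share defines the low and high library sets. Stage and this library set cannot be told apart in 9 of the 10 SHRSP animals. With the set as a term in edgeR, 0 IDs passed, and 576 had an unadjusted p under 0.05, 329 higher and 247 lower. Within the high set, where animal 383 is the only SHRSP animal of the early stage and is assumed to vary like the rest, 23 of 13816 IDs passed in edgeR (0.166%), all higher in late vessels. This comparison rests on a single early library.

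The stage difference of SHRSP vessels was next set against that of Wistar vessels. In edgeR's test of the difference itself, 1 of 11011 IDs passed (0.00908%), and 788 had an unadjusted p under 0.05 (7.16%). The median difference was 0.21, with 54.4% of IDs positive. ENSRNOG00000061934 passed, with a log2 difference of -18.82 (SE 3.62, adjusted p = 0.0022 in edgeR). Its pattern was crossed: early SHRSP and late Wistar animals had counts, and late SHRSP and early Wistar animals had none. The late Wistar levels were 26.9, 7.93, 2.18 and 0 CPM, at least 50.1-fold over early Wistar, and at least 16.1-fold without animal 350. Both non-zero groups were led by 1 animal, 377 in SHRSP and 350 in Wistar. It passed in 20 of 21 other settings that tested it, was lost in limma voom (adjusted p = 0.774), and was filtered out without animal 374, without 377 and under the stricter filter.

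ENSRNOG00000008257 came next on the lower side and did not pass (log2 difference -13.53, edgeR adjusted p = 0.0663). Early SHRSP levels were 325 CPM in animal 374, 116 in 380, 48.3 in 386, 3.65 in 383 and 0 in 377, and late ones were 0 to 1.07 CPM. Early Wistar libraries had no count, and late ones 0 to 3.84 CPM. ENSRNOG00000036802 led the higher side, also without passing (log2 difference 2.65, SE 0.70, edgeR adjusted p = 0.250). It measured 102 to 271 CPM early and 243 to 1102 CPM late in SHRSP, and 612 to 1620 CPM early and 248 to 510 CPM late in Wistar vessels. Early Wistar vessels thus stood above every late Wistar and every early SHRSP library, and the SHRSP stages overlapped. ENSRNOG00000032048 (log2 difference 11.37, edgeR adjusted p = 0.256) had no count in early SHRSP vessels and 3.98 to 34.4 CPM in late ones, at least 66.7-fold higher. It too is among the 750 tested IDs without an early SHRSP count, so no result is read from that bound. In Wistar vessels it ran from 21.0 to 182 CPM early and from 0 to 19.7 CPM late.

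The neurons of the same animals gave a second reference. Over 10802 IDs with the animal as a block, the stage difference was larger in vessels for 2 IDs (0.0185%) in edgeR, and 2435 IDs had an unadjusted p under 0.05 (22.5%). The median of the vessel-minus-neuron differences was 2.77 and 88.8% were positive, a shift over most IDs in this fit. Without the block the median was 0.58, so the size of the shift rests on the model. Both materials share 1 spread per ID in this fit, although the coefficients above were several times larger in vessels. Without the replicate block 445 IDs passed (4.12%), 435 higher and 10 lower, and neither of the 2 calls was among them.

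ENSRNOG00000005726 was 1 of the 2 calls, with a log2 difference of 5.65 (SE 1.04, adjusted p = 0.00057 in edgeR with the animal block). ENSRNOG00000004057 was the other, at 5.16 (SE 1.13, adjusted p = 0.0242 in edgeR with the animal block). Its vessel levels in this fit were 1.27 to 2.995 CPM in 4 early animals, 244 in animal 383 and 186 to 321 in late animals. The neurons of these animals held 173 to 386 CPM early and 329 to 527 late. As with ENSRNOG00000005726, 4 early vessel libraries nearly lacked a transcript that neuron libraries of the same animals held, and animal 383 did not. Without the block the log2 differences were 1.88 (adjusted p = 0.685) and 1.60 (adjusted p = 0.690) in edgeR, neither past the threshold.

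On the lower side no ID passed. ENSRNOG00000000262 had a log2 difference of -6.19 (edgeR, adjusted p = 0.145), from 0, 361, 69.0, 21.5 and 46.8 CPM in early animals 374, 377, 380, 383 and 386 to 5.91 and 8.37 CPM in late animals 378 and 381 and 0 in the 3 other late ones. Neurons held 17.0 to 35.5 CPM over both stages. ENSRNOG00000007246 had -6.24 (edgeR, adjusted p = 0.175), with 0 to 34.7 CPM in early and 0 to 7.23 CPM in late vessels, and 0 to 0.567 CPM in early and 0 to 4.81 CPM in late neurons.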

How the data were processed

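Per the labels' protocols, RNA was extracted with PicoPure and sequenced as Lexogen QuantSeq 3' forward libraries. The values deposited by the authors are unnormalized counts, whole numbers in 1 table of 32883 Ensembl IDs and 38 columns named by sample title (0 without a sample). STAR 2.5.3a, HTSeq 0.6.1, FastQC 0.11.5 and DESeq2 1.18.1 are listed in the submitters' processing notes. As for build, annotation and strand setting, none is given in the sources used here, so overlapping genes and near-identical copies cannot be separated. Of the 32883 IDs, 0 matched the reference tables, so the 31 gene and marker lists prepared by symbol were not applied and no sequence is shown. The comparison, its lists and its rules were chosen with earlier results of these data known.

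Counts of the 19 vessel libraries were filtered with edgeR's filterByExpr by group, scaled by TMM and fitted with the 4 groups as terms in edgeR 4.0.16 (R 4.3.3), with robust quasi-likelihood F tests, two-sided, adjusted by Benjamini-Hochberg over all IDs tested. The strain difference came from the same fit. The vessel-minus-neuron difference came from the 20 SHRSP libraries with the animal as a block. SE is the log2 fold divided by the square root of F. Library measures were tested by exact permutation (scipy 1.17.1). Vessel-enriched and neuron-enriched IDs were those past an adjusted p of 0.05 and a log2 fold of 1 between vessels and neurons of the Wistar animals, with the animal as a block. For each test the IDs with the smallest p are named, up to 2 in each direction. The most abundant ID is named besides, chosen for its level.

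The animal number in the titles ties vessel to neuron libraries, and the block rests on it. Over 4537 IDs whose mean log2 CPM was 5 or more, deviations of the 10 SHRSP pairs correlated between -0.204 and 0.236 (median 0.0259, 2 over 0.1). Replicates are separately numbered animals, so p-values reflect animal, cutting and library variation together. Totals of the 10 libraries ran from 1612966 to 4963429 counts. Reads carry no molecular identifiers used here, so floors of 3 counts over a group cover counting error only. Alternatives were DESeq2 1.42.0, limma 3.58.1 (voom with sample weights), other scaling and filters, thinning, library covariates and leaving out each animal. The scripts were tested on simulated data with 200 changed IDs. Apart from those changes, all groups had the same mean and the same spread per ID, unlike the real groups. With the spread of the real vessel libraries, 0 were recovered at 2-fold, 0 at 4-fold and 35 (17.5%) at 16-fold. With a spread of 0.3, 74 were recovered at 2-fold and 197 at 4-fold.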

Additional observations from a re-analysis of the deposited data

Results flagged for a closer look

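Animal 383 stood apart from the 4 other early SHRSP vessel libraries in the share of the most abundant ID, ENSRNOG00000043866, at 17.7% of counts. It stood apart in the same way at 134.4 CPM of ENSRNOG00000005726 and 229 CPM of ENSRNOG00000004057 (19-library scale). Animal 377 stood apart at 310.1 CPM of ENSRNOG00000061934 and 373 CPM of ENSRNOG00000000262. In the late group, animal 378 stood apart at 1102 CPM of ENSRNOG00000036802. In each case the gap to the nearest other library, divided by the range of the group, exceeded Dixon's 95% critical value. Of 29 groups of values examined, 6 were marked in this way. Chance marks about 1 group in 20 only for normally spread values in groups not chosen by the data. Many of these groups held IDs named for a small p, and some held zeros, so that rate does not apply to them.

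The stage differences of 3 IDs differed between groups in edgeR's test of the difference itself. ENSRNOG00000061934 had -18.82 on the log2 scale for SHRSP minus Wistar vessels, from groups without counts on either side, so this fitted value is no measure of size. ENSRNOG00000005726 had 5.65 and ENSRNOG00000004057 had 5.16 for SHRSP vessels minus neurons. The part of library detection in the last 2 values was not tested.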

How the results depend on the processing

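No named ID changed sign (ENSRNOG00000061934 has no count in SHRSP vessels of the high library set), but the balance over all IDs did: the median late-minus-early log2 fold of 0.45 was -0.14 with IDs detected as a covariate, and the median strain difference of 0.21 was -0.06 without animal 349 (428 higher and 805 lower at an unadjusted p under 0.05). The late-minus-early count of 1 became 2 with DESeq2-type size factors in edgeR, 0 without a filter (2925 IDs at an unadjusted p under 0.05), 358 in DESeq2, 3 in limma voom, 6 with only the 10 SHRSP vessel libraries, and 0 with IDs detected as a covariate or the library set as a term. It was 23, all higher where the 1 call had been lower, within the high library set, an alternative chosen after seeing the data. Leaving out 1 animal gave 0 to 1310 calls: 0 without 374 or 384, 3 without 377 and 1310 without 383. The strain difference of 1 became 2 with DESeq2-type size factors, 3 without a filter, 0 with the stricter filter, 130 in DESeq2 and 0 in limma voom, and 0 to 8 without single animals (8 without 383, 3 without 377 or 386, 0 without 374, 2 without 349, 353, 354, 368, 378 or 380). The vessel-minus-neuron count of 2 became 0 with DESeq2-type size factors, 1 without a filter, 2875 in DESeq2, 0 in limma voom, and 445 with no replicate block; it ran from 0 to 1469 without single animals (0 without 386, 6 without 374, 1469 without 383, 1 without each other). The difference in IDs detected stayed between 3459.8 and 4985.5, that in the share of the most abundant ID between 8.76 and 14.1 percentage points, and each passed without any single animal. Without 383, the only early library inside the late range of both measures, passing was fixed by the exclusion. The difference in the share of vessel-enriched IDs stayed between -3.34 and -2.53, an alternative added after seeing the data. In 4 early libraries detection limits what can be said, mostly below 100 CPM but also above, where 12 to 132 of 1388 IDs had no count.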
